A study of Mus musculus with 7 samples.

Results

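The genes described here are 41 members of the type I interferon response, given as a list of symbols and matched through Ensembl identifiers to a count table of 39017 mouse genes. All 41 were in the table, Ddx58 under that older symbol of Rigi, and 40 were abundant enough to be tested. Messenger RNA was sequenced from sorted CD4+ T cells of female C57BL/6 mice in which experimental autoimmune encephalomyelitis (EAE), an autoimmune disease of the central nervous system, had been induced. The conditional knockout (cKO) group, 4 libraries (replicates 2, 3, 7 and 12), was homozygous for floxed Kdm6a and carried CD4-Cre (+/-). The wild-type (WT) littermates, 3 libraries (replicates 10, 14 and 19), were also homozygous for floxed Kdm6a but lacked the transgene, CD4-Cre (-/-). Lymph node cells were taken on day 17 and cultured for 18 hours with 25 µg/mL of a peptide of myelin oligodendrocyte glycoprotein, residues 35 to 55, before the sort. CD4-Cre acts in developing thymocytes, so the deletion predates the disease, and since only cKO mice carried Cre its effect and that of the deletion cannot be told apart. The labels do not say that each library came from its own animal, and a p-value here reflects how far these 7 libraries spread, some of which may be technical.

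Type I interferons, the alpha and beta interferons, bind a receptor made of IFNAR1 and IFNAR2 on nearly every cell. The kinases JAK1 and TYK2 then phosphorylate STAT proteins, among them STAT2, which joins IRF9 in a complex that binds the interferon-stimulated response element in front of target genes. Those genes encode sensors of foreign nucleic acid, enzymes that degrade RNA or block its translation, and feedback inhibitors, and many also answer interferon gamma. Interferon beta is a treatment of multiple sclerosis. Kdm6a is X-linked and encodes a histone demethylase that erases a repressive mark on histone H3.

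Of the 40 tested members, 5 passed the threshold for a difference between the groups. Ifi44, Oasl1 and Oas1a rose in cKO cells, by 3.83-fold, 1.83-fold and 1.61-fold. Ifnar1 fell by 25.3% and Slfn5 by 34.2%. The remaining 35 tested members, among them the widely used markers Isg15, Ifit1, Mx1, Irf7, Usp18 and Rsad2, did not pass the threshold, an adjusted p of 0.05 in edgeR's quasi-likelihood test with Benjamini-Hochberg adjustment over all 15968 genes tested. The 5 calls made up 12.5% of the 40, where 6.44% of all tested genes were called. In all genes 2.79% were called higher and 3.64% lower. The count of higher members depended on the tool: DESeq2 called 6 higher (4.94% of all its genes) and 2 lower (5.49%), and limma voom called 11 higher (5.02%) and 1 lower (5.81%). Beyond Ifi44, Oasl1 and Oas1a, DESeq2 called Ifi204, Lgals3bp and Ddx60 higher. To these limma voom added Ifit3, Ifit3b, Irf7, Ifih1 and Slfn8. Without a filter on low counts edgeR called 5 higher (2.18% of all its genes). The groups did not overlap in 8 members, 5 with cKO above WT and 3 with cKO below, which is 20% of the 40 and lies near the 21% seen over all tested genes (10.3% above and 10.7% below). At an unadjusted p under 0.05 there were 12 higher and 4 lower members, 40% of the 40, against 21.5% of all genes (11.1% higher and 10.4% lower). The median log2 fold change was 0.09 over the members and 0.01 over all tested genes. A positive value was found in 27 of the 40 members (67.5%), against 52.2% of all tested genes. The summed level of the 41 members was nearly the same in both groups, 6342 ± 537 CPM in cKO and 6298 ± 504 CPM in WT (mean ± SD, n = 4 and 3), where CPM are counts scaled to a fixed library total. The most abundant members weigh most in this sum: Parp14 averaged 636 CPM in cKO and Ifi44 34.3 CPM. In bulk RNA, fewer cells expressing a gene and less RNA per cell cannot be told apart.

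**Figure D1:**
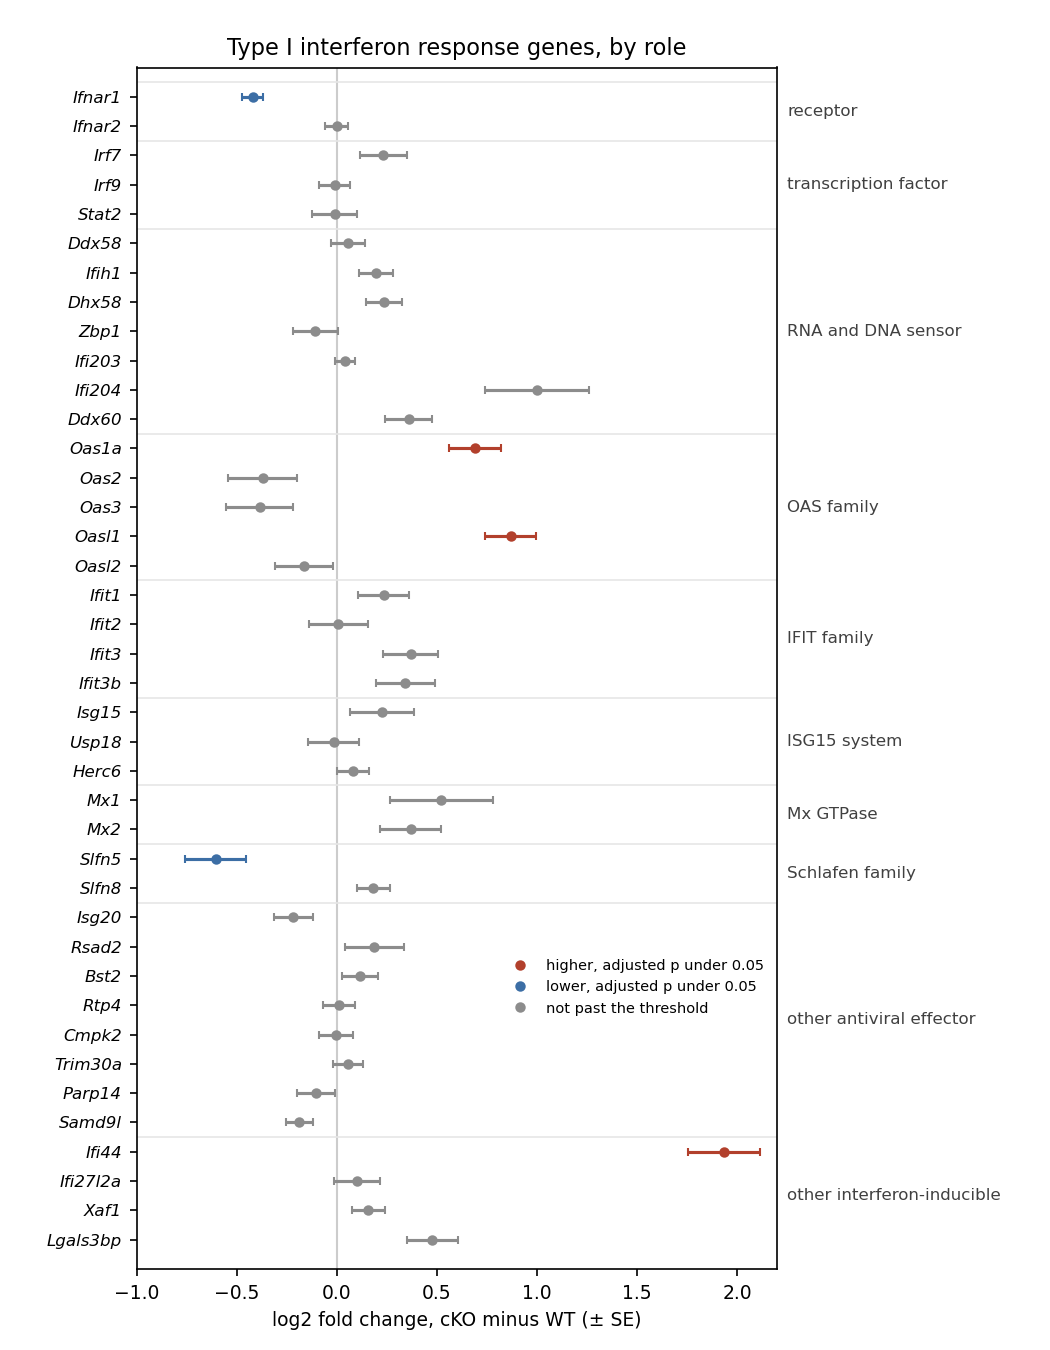
Log2 fold change of cKO over WT for the 40 tested members, with bars for the standard error (SE) and members ordered by role. Red points (Ifi44, Oasl1, Oas1a) and blue points (Ifnar1, Slfn5) passed the adjusted threshold, and most grey points lie within 0.25 of 0.

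Total counts ran from 17910536 (cKO replicate 2) to 28697579 (WT replicate 14). The transcript Gm42418, which overlaps ribosomal RNA sequence, took 9.22% of the counts of cKO replicate 2 and 2.55% to 4.26% in the other libraries. Kdm6a stood at 104, 96.3, 100.2 and 104 CPM in cKO and 119.6, 125 and 113 CPM in WT, with no overlap between the groups (log2 fold change -0.24 ± 0.06 (SE), adjusted p = 0.0414). Counts over the whole gene cannot show the loss of single exons, and the Kdm6a call was lost without any of cKO replicates 3, 7 and 12 and of the 3 WT libraries (adjusted p = 0.0538 to 0.173). It was also lost when the mean level of markers of B cells, monocytes and dendritic cells entered the model. The defining markers of CD4+ T cells were present in every library, with a summed level of 2551 to 2893 CPM in cKO and 2317 to 2628 CPM in WT. B cell markers summed to 32.6 to 164 CPM in cKO and 32.0 to 71.5 CPM in WT, highest in cKO replicates 2 and 7. All 9 had positive log2 fold changes, from 0.31 to 1.37 with a median of 1.04. Of the 9, 0 were called, against 6.44% of all tested genes.

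The promoters of the 5 called members are shown with those of Isg15 and Ifit1, classical targets that were not called, because they let the letters of the response element be compared with the direction of change. The sequences are from RefSeq on GRCm38.p6, the build of the files (mm10), and run 5′ to 3′ along the gene toward the start that RefSeq gives, shortened where an exon of the gene's GENCODE models begins earlier. RefSeq and GENCODE starts can differ. The Slfn5 stretch lies in an intron of a short GENCODE model that begins further upstream, at the gene start given for Slfn5. Capitals mark GAAA, any 2 bases and GAAA again, the core of the interferon-stimulated response element, or its reverse complement, and overlapping matches run together.
Ifi44: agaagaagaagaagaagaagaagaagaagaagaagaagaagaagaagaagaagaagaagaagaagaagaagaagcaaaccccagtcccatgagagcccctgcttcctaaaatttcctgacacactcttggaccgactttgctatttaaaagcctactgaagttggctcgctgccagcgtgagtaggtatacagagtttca
Oasl1: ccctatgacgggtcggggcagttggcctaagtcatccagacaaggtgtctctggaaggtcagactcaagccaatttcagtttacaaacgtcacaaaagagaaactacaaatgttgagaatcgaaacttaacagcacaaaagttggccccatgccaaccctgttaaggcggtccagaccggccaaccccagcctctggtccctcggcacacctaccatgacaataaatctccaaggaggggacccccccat
Oas1a: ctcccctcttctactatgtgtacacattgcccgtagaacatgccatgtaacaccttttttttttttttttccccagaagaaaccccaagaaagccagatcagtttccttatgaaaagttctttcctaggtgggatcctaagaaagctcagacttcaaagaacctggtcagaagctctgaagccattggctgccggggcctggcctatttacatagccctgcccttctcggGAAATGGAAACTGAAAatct
Ifnar1: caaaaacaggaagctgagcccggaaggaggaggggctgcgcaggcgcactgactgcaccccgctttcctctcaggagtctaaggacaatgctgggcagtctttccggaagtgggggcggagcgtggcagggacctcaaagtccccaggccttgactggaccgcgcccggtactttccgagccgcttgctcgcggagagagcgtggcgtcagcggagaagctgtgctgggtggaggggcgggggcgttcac
Slfn5: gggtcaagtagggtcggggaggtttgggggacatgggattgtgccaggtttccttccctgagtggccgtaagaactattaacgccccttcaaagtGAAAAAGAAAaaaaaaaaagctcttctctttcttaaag
Isg15: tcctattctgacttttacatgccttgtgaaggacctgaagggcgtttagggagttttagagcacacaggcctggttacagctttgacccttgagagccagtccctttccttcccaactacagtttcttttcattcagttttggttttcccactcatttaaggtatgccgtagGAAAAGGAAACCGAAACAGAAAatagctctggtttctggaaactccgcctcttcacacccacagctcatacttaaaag
Ifit1: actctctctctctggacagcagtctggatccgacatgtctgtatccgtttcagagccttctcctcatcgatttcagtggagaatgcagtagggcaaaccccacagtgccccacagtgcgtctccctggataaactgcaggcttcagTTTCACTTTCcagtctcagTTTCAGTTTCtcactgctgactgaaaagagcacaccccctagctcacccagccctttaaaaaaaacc

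These stretches are chr3:151749961-151750160 (minus strand) for Ifi44, chr5:114922990-114923239 (plus) for Oasl1, chr5:120907526-120907775 (minus) for Oas1a, chr16:91484965-91485214 (plus) for Ifnar1, chr11:82951852-82951984 (plus) for Slfn5, chr4:156200819-156201068 (minus) for Isg15 and chr19:34640639-34640870 (plus) for Ifit1. Of the called members, Oas1a held 2 overlapping matches just before its RefSeq start and Slfn5 held 1, inside that intron, while Ifi44, Oasl1 and Ifnar1 held none in this window. Isg15 held 3 overlapping matches and Ifit1 held 2. The table gave promoters for 31 of the 41 members. Over the full window of 300 bases, 250 before and 50 after the start, 17 of the 31 (54.8%) had the motif in at least 1 promoter, against 3.99% of all 27025 genes in the table. Among tested members, the 16 with the motif had a median log2 fold change of 0.19, with 1 called higher and 1 lower, and the 14 without it had a median of 0.0041, with 2 called higher and 1 lower. The gamma-activated site, TTCNNNGAA, which reads the same on both strands, was in 6 of the 31 (19.4%) and in 9.55% of all genes. A match describes the letters only, and no binding was measured.

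Of the 2 receptor chains, Ifnar1 fell and Ifnar2 did not pass the threshold. Ifnar1 (ENSMUSG00000022967, chromosome 16, 91485238 to 91507441, in mm10) had 160.5, 170.5, 175 and 160.0 CPM in cKO and 218, 224 and 226 CPM in WT, the libraries being listed here and in what follows in the order of replicates given above. Every cKO library was below every WT library, and the libraries of each group lay close together (log2 fold change -0.42 ± 0.05 (SE), adjusted p = 0.00234). Ifnar2, the chain with the higher affinity for interferon, had 68.1, 67.9, 68.8 and 65.3 CPM in cKO and 67.8, 63.7 and 71.1 CPM in WT. Its groups overlapped and differed by less than their spread (log2 fold change 1.3e-04 ± 0.06 SE, adjusted p = 0.999). It overlaps the gene Gm21970 on the same strand, so some reads may belong to either. Both genes lie on chromosome 16, Ifnar2 at 91372783 to 91405589. The receptor gene between them, Il10rb, which encodes a chain of the interleukin 10 and interferon lambda receptors, averaged 51.9 ± 9.54 CPM in cKO and 50.4 ± 2.87 CPM in WT (mean ± SD; log2 fold change 0.040 ± 0.13 (SE), adjusted p = 0.897). The next receptor gene beyond Ifnar1, Ifngr2, a chain of the interferon gamma receptor, showed a log2 fold change of -0.38 ± 0.12 (adjusted p = 0.0977). Both neighbours were picked after their values were seen. The Ifnar1 call held under all 14 alternatives, with log2 fold changes between -0.45 and -0.38.

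**Figure D2:**
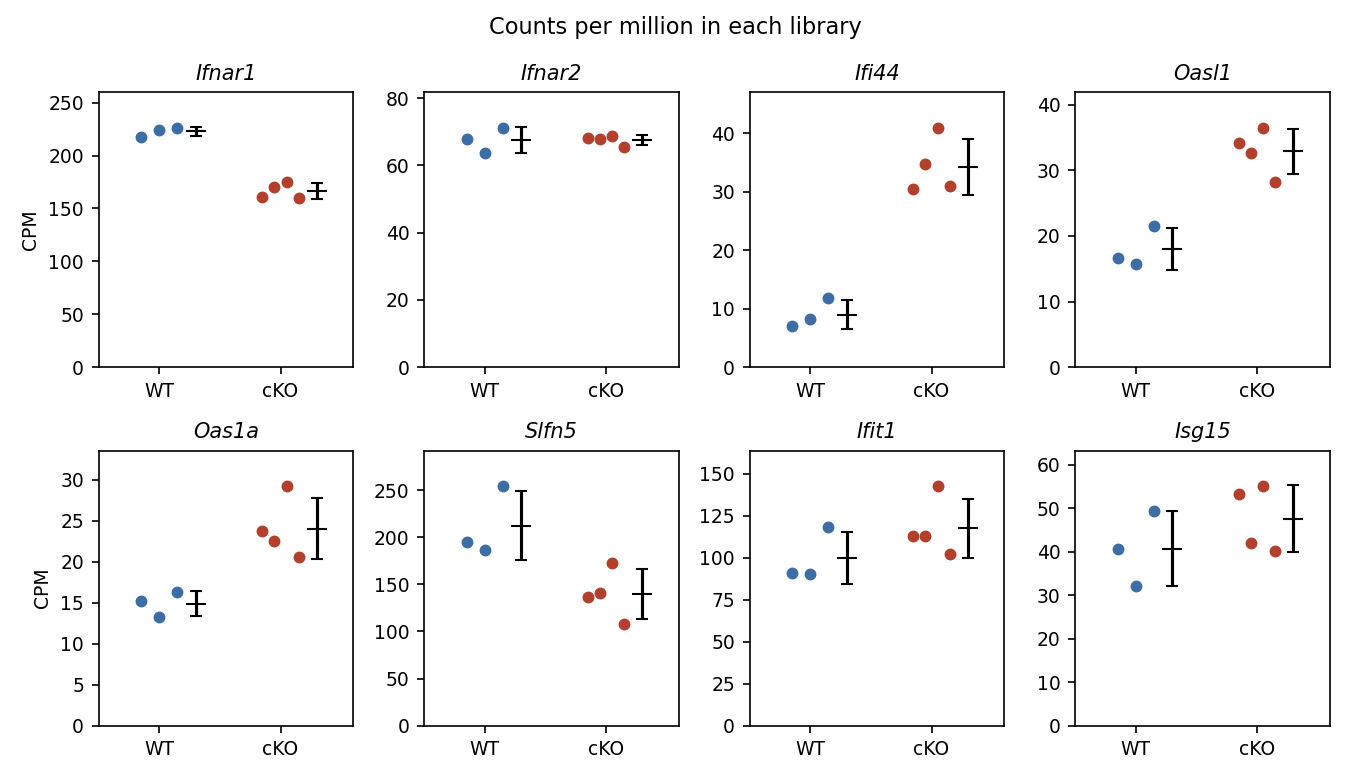
CPM in each library (points) of the 5 called members, of Ifnar2 and of 2 classical target genes, with the mean and SD of each group beside the points. Ifnar1, Ifi44, Oasl1, Oas1a and Slfn5 have no overlap between the groups, while Ifnar2, Ifit1 and Isg15 overlap.

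None of the 3 transcription factors on the list was called in the main edgeR fit, while limma voom called Irf7 higher (adjusted p = 0.0471). Stat2 had 314, 380.0, 415 and 313 CPM in cKO and 331, 344 and 400.1 CPM in WT, and the groups spanned the same range (log2 fold change -0.010 ± 0.11 (SE), adjusted p = 0.972). Irf9, its DNA-binding partner, showed a log2 fold change of -0.011 ± 0.08 (adjusted p = 0.958), and it overlaps Rnf31 on the same strand. Irf7, which amplifies interferon production and is itself a target, had 319, 355, 428 and 355 CPM in cKO and 274, 294 and 362 CPM in WT, overlapping and highest in cKO replicate 7 (log2 fold change 0.23 ± 0.12 (SE), adjusted p = 0.297). Irf7 overlaps Phrf1 on the opposite strand, which averaged 206 CPM, and whether counting used strand is not known here.

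None of the 7 sensor genes was called in the main edgeR fit. DESeq2 called Ifi204 and Ddx60 higher, and limma voom called both and Ifih1. Zbp1, a sensor of left-handed nucleic acid, was the most abundant with 419, 526, 581 and 467 CPM in cKO and 499.5, 518 and 591 CPM in WT. Ifi203, of the AIM2-like receptor family, had 234, 243, 239.8 and 228 CPM in cKO and 235, 227 and 226 CPM in WT, a narrow band in both groups. Their log2 fold changes were -0.11 ± 0.11 (adjusted p = 0.646) and 0.043 ± 0.05 (adjusted p = 0.691). The RNA helicases that sense viral RNA in the cytoplasm, Ddx58 (RIG-I) and Ifih1 (MDA5), had log2 fold changes of 0.057 ± 0.08 (adjusted p = 0.758) and 0.20 ± 0.08 (adjusted p = 0.22). Dhx58, their regulator LGP2, showed a log2 fold change of 0.24 ± 0.09 (adjusted p = 0.173), and the related helicase Ddx60 showed a log2 fold change of 0.36 ± 0.12 (adjusted p = 0.107). Ifi204, another AIM2-like receptor, had the largest log2 fold change of the group, 1.003 ± 0.26 (adjusted p = 0.0537), and its cKO libraries were all above WT. Its level was low, 4.78 to 9.47 CPM in cKO and 2.68 to 3.67 in WT, highest in cKO replicate 2. Of its transcript windows of 50 bases, 20.02% also occur in other genes, so its share of reads is uncertain.

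In the oligoadenylate synthetase (OAS) family, only Oasl1 and Oas1a were called, both higher in cKO. Most of these enzymes make a second messenger that activates RNase L, whereas OASL1 is known in mice as an inhibitor of Irf7 translation. Oasl1 (ENSMUSG00000041827, chromosome 5, 114923240 to 114937915) had 34.1, 32.6, 36.5 and 28.3 CPM in cKO and 16.7, 15.7 and 21.6 CPM in WT. Its lowest cKO library was above its highest WT library (log2 fold change 0.87 ± 0.13 (SE), adjusted p = 0.00437). Oas1a (ENSMUSG00000052776, chromosome 5, 120896256 to 120907521) had 23.8, 22.5, 29.2 and 20.5 CPM in cKO and 15.2, 13.2 and 16.3 CPM in WT. The groups again did not overlap (log2 fold change 0.69 ± 0.13 (SE), adjusted p = 0.0139), but Oas1a did not pass when WT replicate 10 (adjusted p = 0.0582) or WT replicate 14 (0.0837) was left out, and the number of higher members was then 2.

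Oas3 had 156, 138, 178 and 107 CPM in cKO and 178, 163 and 226 CPM in WT. Its value in cKO replicate 7 lay within the WT range and those of the other cKO libraries below it (log2 fold change -0.38 ± 0.17 (SE), adjusted p = 0.218). Oasl2 had 166, 199, 255 and 197 CPM in cKO and 197, 220.3 and 269 CPM in WT, overlapping (log2 fold change -0.16 ± 0.14 (SE), adjusted p = 0.579). Oas2, beside Oas3 on chromosome 5, averaged 102 ± 23.8 CPM in cKO and 132 ± 19.04 CPM in WT (mean ± SD), a log2 fold change of -0.37 ± 0.17 (adjusted p = 0.258). Thus 2 of 5 tested members of the family were called higher, against 2.79% of all tested genes. The other 3 had negative values that did not pass, and that of Oasl2 was positive in limma voom (0.011). Oas1g, the copy next to Oas1a, had 0 to 7 counts per library and was not tested. It shares 57.6% of the 50-base windows of Oas1a, so reads of the pair may have been split in ways the sources used here do not describe. The further copies Oas1b and Oas1c had log2 fold changes of 0.14 ± 0.07 (adjusted p = 0.277) and 0.14 ± 0.09 (adjusted p = 0.417).

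The IFIT proteins bind viral RNA and stop its translation, and none of their 4 genes was called in the main edgeR fit. In limma voom Ifit3 (adjusted p = 0.0223) and Ifit3b (0.0358) were called higher. Ifit3 had 128, 144, 187 and 145 CPM in cKO and 103, 110.3 and 138 CPM in WT, overlapping (log2 fold change 0.37 ± 0.14 (SE), adjusted p = 0.154). Ifit2 had 110.2, 134, 169 and 145 CPM in cKO and 122, 129.5 and 166 CPM in WT, with the 2 groups on the same range (log2 fold change 0.0081 ± 0.15 (SE), adjusted p = 0.982). Ifit1, whose promoter held 2 matches to the response element core, averaged 118 ± 17.4 CPM in cKO and 99.9 ± 15.7 CPM in WT (mean ± SD), a log2 fold change of 0.23 ± 0.13 (adjusted p = 0.339). Ifit3b showed a log2 fold change of 0.34 ± 0.15 (adjusted p = 0.222). Ifit3 and Ifit3b are near-identical neighbours, with 51.2% of the windows of Ifit3 also in Ifit3b, so the division of reads between them is uncertain.

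The ISG15 system and the Mx genes did not pass either. Isg15, a ubiquitin-like modifier, had 53.4, 42.1, 55.1 and 40.1 CPM in cKO and 40.6, 32.2 and 49.5 CPM in WT. Herc6, the ligase that attaches it in mice, had 70.3, 64.1, 65.4 and 59.5 CPM in cKO and 59.2, 57.1 and 67.4 CPM in WT. Both overlapped between the groups, with log2 fold changes of 0.23 ± 0.16 (adjusted p = 0.466) and 0.082 ± 0.08 (adjusted p = 0.62). Usp18, which removes ISG15 and also blocks the receptor, showed a log2 fold change of -0.014 ± 0.13 (adjusted p = 0.966). Mx1 and Mx2 encode GTPases that trap viral components, and C57BL/6 mice carry defective alleles of Mx1. Mx1 had 17.9, 11.5, 12.2 and 8.48 CPM in cKO and 11.4, 8.22 and 6.42 CPM in WT, highest in cKO replicate 2 (log2 fold change 0.52 ± 0.26 (SE), adjusted p = 0.29). Mx2 had 10.2, 8.31, 8.81 and 7.06 CPM in cKO and 7.12, 6.97 and 5.83 CPM in WT, and its lowest cKO library lay within the WT range (log2 fold change 0.37 ± 0.15 (SE), adjusted p = 0.196).

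Of the 2 Schlafen genes, which regulate lymphocyte growth and restrict viruses, Slfn5 fell and Slfn8 had a positive value that did not pass. Slfn5 (ENSMUSG00000054404, chromosome 11, 82951349 to 82964840) had 136, 141, 172 and 108 CPM in cKO and 195, 187 and 254 CPM in WT. The groups did not overlap, but the nearest libraries, cKO replicate 7 and WT replicate 14, were close (log2 fold change -0.60 ± 0.15 (SE), adjusted p = 0.049). Leaving out 1 library ended the call in 6 of 7 cases: cKO replicate 2 (adjusted p = 0.0746), 3 (0.0946) or 12 (0.0636), or WT replicate 10 (0.099), 14 (0.0934) or 19 (0.187), and in limma voom (0.0598), with a log2 fold change between -0.73 and -0.44 over the alternatives. In each of those 6 cases Ifnar1 was the only member called lower. Slfn8 had 235, 258, 254 and 226 CPM in cKO and 203, 199 and 240.4 CPM in WT, with the groups overlapping (log2 fold change 0.18 ± 0.08 (SE), adjusted p = 0.231). It was called higher in limma voom alone (adjusted p = 0.0336).

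None of the 8 other antiviral effectors was called. Parp14, an ADP-ribosyltransferase, had 543, 672, 702 and 627 CPM in cKO and 619, 699 and 731 CPM in WT, overlapping (log2 fold change -0.10 ± 0.10 (SE), adjusted p = 0.601). Samd9l, a translation inhibitor, had 406, 439, 446 and 391 CPM in cKO and 465, 463 and 509 CPM in WT. All cKO libraries were below WT, without passing the threshold (log2 fold change -0.19 ± 0.07 (SE), adjusted p = 0.147). The other 6 had log2 fold changes from -0.22 to 0.19. At the lower end was Isg20, an exonuclease, and at the upper end Rsad2, which encodes viperin. Its neighbour Cmpk2, a nucleotide kinase, showed a log2 fold change of -0.0022 ± 0.09 (adjusted p = 0.992). That of Bst2, which tethers virions to the cell, was 0.12 ± 0.09 (adjusted p = 0.517). Trim30a, a ubiquitin ligase, and Rtp4, a chaperone of receptors, showed log2 fold changes of 0.057 ± 0.07 (adjusted p = 0.723) and 0.012 ± 0.08 (adjusted p = 0.956).

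Among the 4 members with less defined functions, Ifi44 had the largest difference of all 40. Ifi44 (ENSMUSG00000028037, chromosome 3, 151730922 to 151749960), which encodes an interferon-induced GTP-binding protein, had 30.4, 34.7, 40.9 and 31.0 CPM in cKO and 7.001, 8.15 and 11.7 CPM in WT. The lowest cKO library, at 30.4 CPM, was above the highest WT library, at 11.7 CPM (log2 fold change 1.94 ± 0.18 (SE), adjusted p = 0.000372). The call held under all 14 alternatives, with log2 fold changes between 1.79 and 2.18. Lgals3bp, a secreted glycoprotein that binds galectins, had 498, 325, 377 and 379 CPM in cKO and 302, 269 and 279 CPM in WT. Its cKO libraries were all above WT, and the difference narrowly missed the threshold (log2 fold change 0.48 ± 0.13 (SE), adjusted p = 0.0591). Ifi27l2a had 214, 199, 249 and 196 CPM in cKO and 224, 165 and 211 CPM in WT, overlapping (log2 fold change 0.10 ± 0.12 (SE), adjusted p = 0.679). Xaf1, which promotes apoptosis, showed a log2 fold change of 0.16 ± 0.08 (adjusted p = 0.32). Lgals3bp was called under 5 of the 14 alternatives and Ifi204 under 4. Without cKO replicate 2 Lgals3bp passed with a log2 fold change of 0.34 (adjusted p = 0.028; 0.00397 to 0.219 over all of them).

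Levels were compared between genes as CPM per kilobase of merged exons. Ifi27l2a was highest in WT with 432 ± 66.8 (SD), followed by Zbp1 with 152 ± 13.7 and Lgals3bp with 99.6 ± 5.91. The same 3 genes led in cKO, where Zbp1 (141 ± 19.96) and Lgals3bp (139 ± 25.7) did not differ beyond their spread. The members that rose lay in the lower part of this order. In WT, Oas1a ranked 33, Oasl1 34 and Ifi44 39 of 41 by this measure, and in cKO they ranked 30, 31 and 37. Ifnar1 ranked 16 in WT and 20 in cKO, and its level per kilobase, 37.5 ± 0.751 in WT and 28.02 ± 1.24 in cKO, stayed above that of Ifnar2 (20.3 ± 1.12 and 20.3 ± 0.455).

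**Figure D3:**
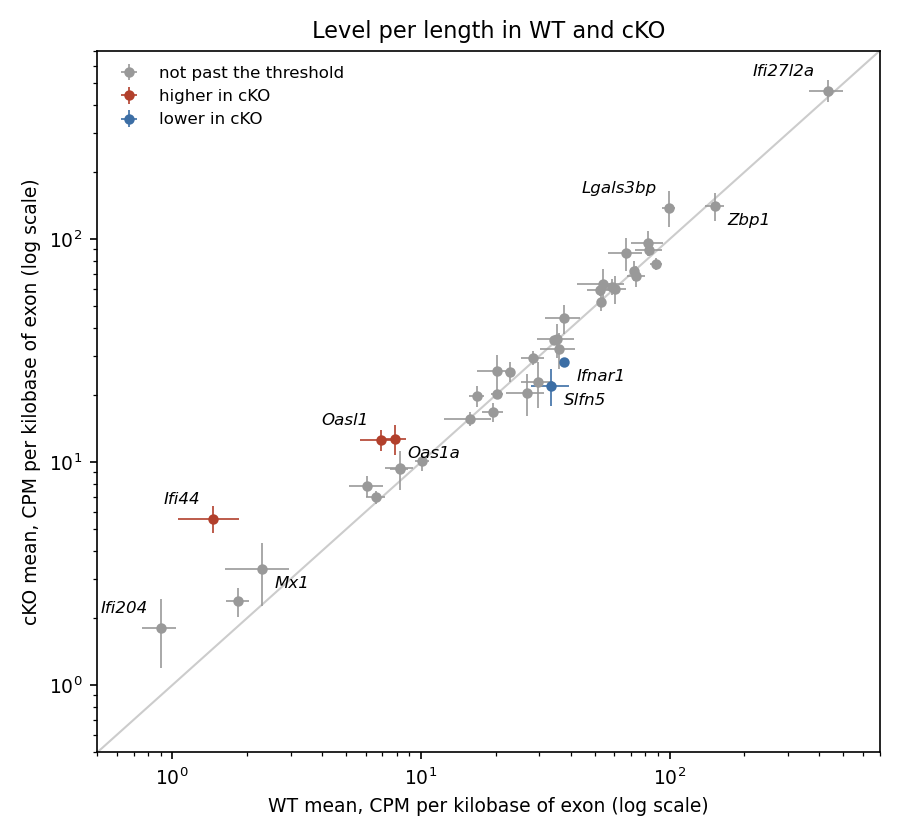
Mean level of each tested member in WT (x axis) and cKO (y axis), in CPM per kilobase of exon on log axes, with bars for the SD over 3 and 4 libraries and a line of equal level. Ifi44, Oasl1 and Oas1a (red) lie above the line at the low end, and Ifnar1 and Slfn5 (blue) lie below it.

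Within each group, most members were high or low in the same library. Among the cKO libraries, replicate 7 was highest in 31 of the 40 members (77.5%), against 19.3% of all tested genes, and replicate 12 was lowest in 26 (65%), against 27.4%. Among the WT libraries, replicate 19 was highest in 31 members (77.5%), against 37.6% of all genes, and replicate 14 lowest in 21 (52.5%), against 32.1%. In 27 members both replicate 7 and replicate 19 led their groups. The median log2 difference from the other libraries of the group, on log2(CPM + 0.5), was 0.20 for cKO replicate 7 and 0.22 for WT replicate 19, against -0.0031 and 0.0025 over all tested genes. Both exceed the median difference between the groups, 0.09. In 7 members (17.5%), Mx1, Mx2, Ifih1, Dhx58, Ifi204, Lgals3bp and Herc6, cKO replicate 2 was the highest of its group. Over all tested genes this share was larger, 29.9%. Genes of a library share its RNA and depth, so the 40 members are not independent observations of it.

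**Figure D4:**
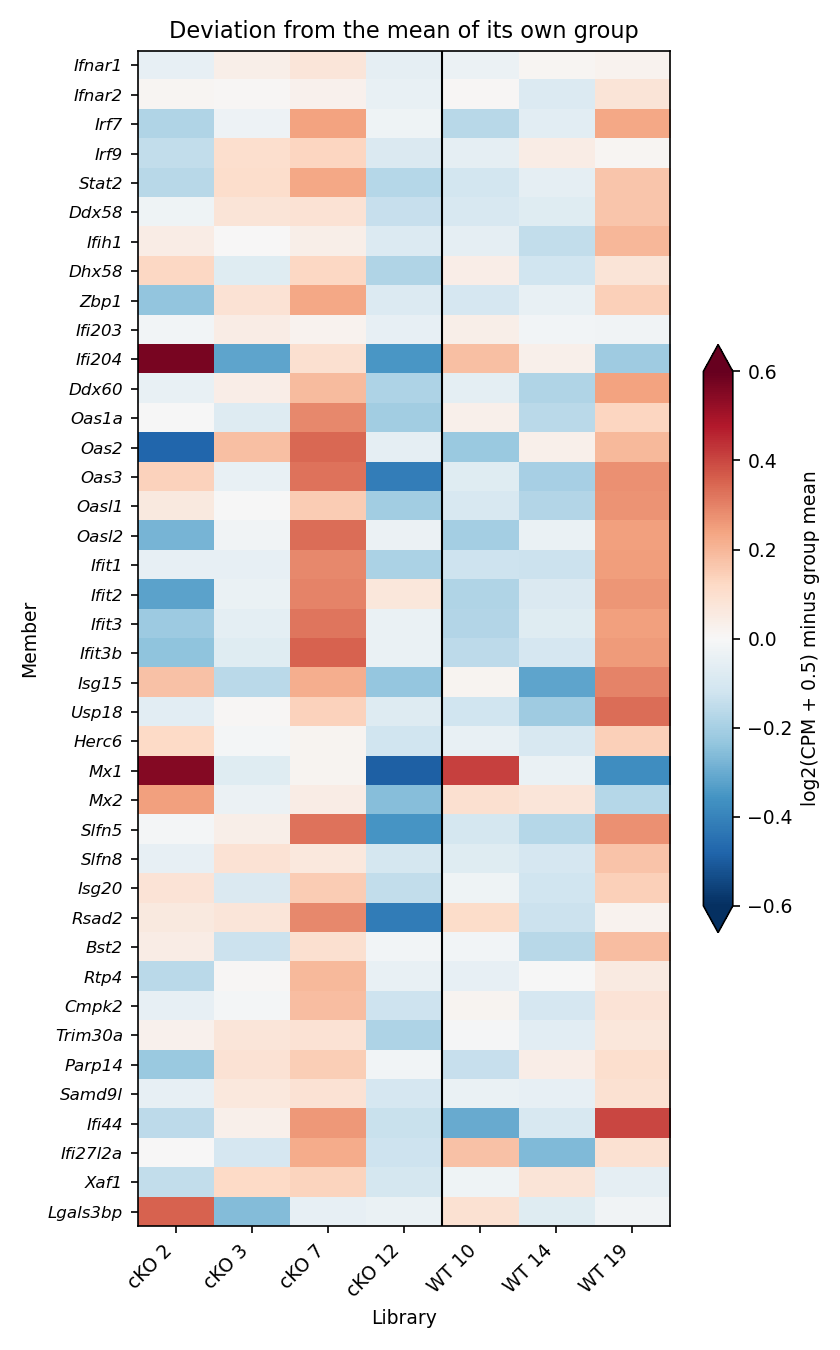
Difference of each library from the mean of its own group, on log2(CPM + 0.5), for the 40 tested members (rows) in 4 cKO and 3 WT libraries (columns); red is above the group mean. Columns cKO 7 and WT 19 are red in most rows, and cKO 12 and WT 14 are blue in most rows.

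Markers of cells that could remain in the sort were set beside this order. Plasmacytoid dendritic cells are a major source of type I interferon. The 8 markers of this type summed to 80.4 to 122 CPM in cKO and 111 to 124 CPM in WT, highest in cKO replicate 7 and WT replicate 19, and 0 of 4 tested were called. Nearly all of that sum was Pacsin1, with 69.99 to 100.3 CPM in cKO and 97.6 to 117 CPM in WT. The defining marker Siglech reached at most 0.292 CPM in any library. Monocyte and macrophage markers summed to 169 to 220.2 CPM in cKO and 178 to 203 in WT, mostly from Ctss (144 to 170 CPM and 151 to 178 CPM), and dendritic cell markers to 17.2 to 31.8 and 14.4 to 19.8. Clec9a was at 0 in all libraries. NK cell markers summed to 73.0 to 82.1 CPM in cKO and 55.8 to 83.8 in WT, CD8 T cell markers to 22.3 to 30.2 and 10.96 to 14.7, and neutrophil markers to 0.852 to 12.2 and 1.30 to 8.51. In these lists Klrb1c and Klre1 (NK) and Crtam (CD8) were called, all higher. When the mean level of markers of B cells, monocytes and both kinds of dendritic cell entered the model, 3 members were called, against 3.93% of all genes, namely Ifi44, Oasl1 and Ifnar1 (log2 fold changes 2.01, 0.84 and -0.42), while Oas1a (log2 fold change 0.60, adjusted p = 0.0624) and Slfn5 (-0.67, adjusted p = 0.102) had values near those without it but did not pass. The part of such cells in these differences and in the order of the libraries was not tested.

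Genes of the rest of the pathway were read from 4 lists. Transcripts of the interferons themselves were all but undetected. Of 14 matched alpha, beta, kappa, epsilon and zeta interferon genes, 9 had no count in any library and none had more than 8 counts in a library, so none was tested. Ifnb1 had 5 counts in WT replicate 14 and 0 in the other libraries.

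Of 16 genes of receptor signalling and feedback, 0 rose and 1 fell, against 6.44% of all genes called, with a median log2 fold change of -0.12. The kinases Jak1 and Tyk2 showed log2 fold changes of -0.068 ± 0.06 (adjusted p = 0.555) and 0.086 ± 0.08 (adjusted p = 0.598), and the inhibitor Socs1 showed a log2 fold change of -0.16 ± 0.09 (adjusted p = 0.394). The called gene was Ptpn2, a phosphatase that acts on JAK1, with 44.2, 42.2, 43.3 and 41.5 CPM in cKO and 52.0, 48.9 and 51.1 CPM in WT and no overlap (log2 fold change -0.24 ± 0.06 (SE), adjusted p = 0.0394). Its call was lost without any of cKO replicates 3, 7 and 12 or of the WT libraries (adjusted p = 0.0615 to 0.157). It was also lost with the marker covariate and with no filter. Of 16 genes of upstream sensing, 0 rose and 1 fell, with a median of -0.09. The gene was Sting1, the adaptor of the cytosolic DNA sensor, with 159, 144, 149 and 155 CPM in cKO and 206, 202 and 250.03 CPM in WT (log2 fold change -0.54 ± 0.08 (SE), adjusted p = 0.00482). All its cKO libraries were below WT, and the call was kept whichever library was left out.

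Of 50 tested further interferon-stimulated genes, 6 rose and 1 fell, with a median log2 fold change of 0.10. The risers included all 3 IFITM genes on this list, which encode membrane proteins that block viral entry. Ifitm1 had 39.1, 42.9, 21.8 and 39.3 CPM in cKO and 11.8, 13.2 and 7.68 CPM in WT, and Ifitm3 had 49.2, 29.6, 40.7 and 62.9 CPM in cKO and 20.8, 15.5 and 14.2 CPM in WT. Neither overlapped between the groups, and cKO replicate 12, the lowest cKO library for most members, was the highest for Ifitm3. Their log2 fold changes were 1.71 ± 0.25 (adjusted p = 0.00447) and 1.44 ± 0.24 (adjusted p = 0.00831), and that of Ifitm2 was 0.85 ± 0.19 (adjusted p = 0.0314). The Ifitm3 call was lost without WT replicate 14 (0.0543) or 19 (0.0513), and that of Ifitm2 without cKO replicate 2 (0.0502) or WT replicate 10 (0.0917), 14 (0.113) or 19 (0.135).

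Tnfsf10, the death ligand TRAIL, showed a log2 fold change of 0.62 ± 0.09 (adjusted p = 0.00497), and its call was kept whichever library was left out. Eif2ak2, the RNA-activated kinase PKR, had 79.6, 68.9, 69.7 and 62.6 CPM in cKO and 54.1, 49.7 and 52.7 CPM in WT, with no overlap (log2 fold change 0.43 ± 0.08 (SE), adjusted p = 0.0162), and lost its call without WT replicate 10 (0.0564), 14 (0.101) or 19 (0.0638). Mndal, which overlaps Ifi203 on the same strand, showed a log2 fold change of 0.22 ± 0.05 (adjusted p = 0.0452), and lost its call when any library except cKO replicate 12 was left out (0.0645 to 0.174). Ly6a, a surface antigen of activated lymphocytes, fell, with a log2 fold change of -0.33 ± 0.07 (adjusted p = 0.0206), and lost its call without cKO replicate 3 (0.0518) or WT replicate 10 (0.068), 14 (0.0552) or 19 (0.0852). Adar, an RNA-editing enzyme, showed a log2 fold change of -0.030 ± 0.07 (adjusted p = 0.858). With the marker covariate the calls of Ifitm2, Eif2ak2, Mndal and Ly6a were also lost, and those of Ifitm1, Ifitm3 and Tnfsf10 were kept. Mndal lost its call with no filter too. The 7 calls among 50 genes stand against 6.44% called over all genes.

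**Figure D5:**
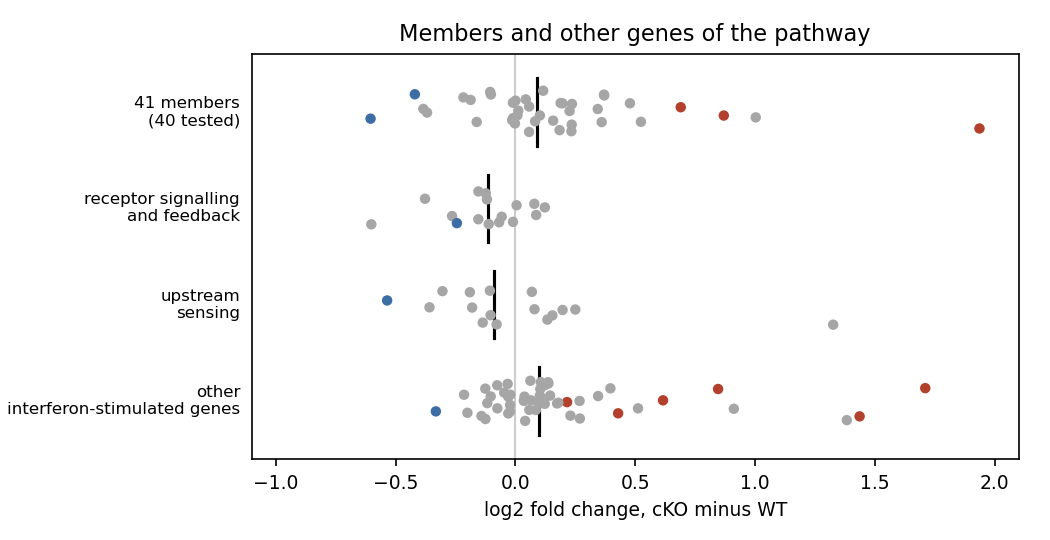
Log2 fold change of cKO over WT for each tested gene (points) of the 41 members and of the 3 other lists with tested genes, with a black bar at the median of each list; red and blue points passed the adjusted threshold. The medians lie between -0.12 and 0.10, and most genes of every list did not pass the threshold.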

How the data were processed

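Counts of reads per Ensembl gene were deposited by the authors, as whole numbers with a different total in each library. Per the labels' protocols, a kit that keeps strand and enriches mRNA was used. The submitters' processing notes name bcl2fastq 2.17 and mm10. For the aligner, the counter and its strand setting, nothing is given in the sources used here, so reads of overlapping genes cannot be assigned with certainty. Symbols, coordinates and exon lengths came from GENCODE models of that build, which matched 37693 of 39017 identifiers.

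Low genes were removed with filterByExpr and TMM factors were computed. The groups were compared in edgeR 4.0.16 (quasi-likelihood test, no covariate; R 4.3.3), with p-values adjusted by Benjamini-Hochberg. SE values were derived from the F statistic. In simulated counts of cKO and WT libraries (15760 genes tested), 200 genes with a mean count of at least 50 were altered. The edgeR test found 70% of 50 genes altered by 0.59 (log2) and 94% of 50 altered by 1, and 7.65% of its 196 calls were unaltered genes. Recovery of changes smaller than 0.59, or in genes with fewer counts, was not simulated. Alternatives were DESeq2 size factors, DESeq2 1.42.0, limma 3.58.1 voom with quality weights, omission of the filter, a cutoff of 1 CPM in 3 libraries (stricter filter), a marker covariate and leaving out each library. Removal of Gm42418 was added after the data were seen. The members and lists were chosen with earlier results of these data known. Library values are given for called members and for the 2 most abundant of each role. Of the other lists, the called genes are named, with Jak1, Tyk2, Socs1, Eif2ak2 and Adar in any case; 1 further gene of that rule is not reported here. Shared windows were counted over GENCODE transcripts on the same strand. Tables and plots used Python 3.11.15, pandas 2.3.3 and matplotlib 3.10.9.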

Additional observations from a re-analysis of the deposited data

How the results depend on the processing

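Over 14 alternatives, Ifnar1, Oasl1 and Ifi44 were called each time, 8 members were called under an alternative alone, and 27 under no setting. Members called higher numbered 3, but 6 in DESeq2, 11 in limma voom and 5 with no filter, and 2 to 4 with a library left out. Members called lower numbered 2, but 1 in limma voom, with the marker covariate and without Gm42418, and 1 to 2 with a library left out. All genes called higher numbered 446, but 773 in DESeq2, 802 in limma voom, 547 with no filter and 221 with the marker covariate, and 146 to 492 with a library left out. All genes called lower numbered 582, but 860 in DESeq2 and 927 in limma voom, and 273 to 638 with a library left out. With the marker covariate, 628 genes were called in both directions together, against 1028 without it. Under an alternative 10 members and Adar changed sign, with main values from -0.16 (Oasl2) to 0.10 (Ifi27l2a). The cause was not tested. Ifnar2 had -0.0025 (DESeq2 size factors), -0.0022 (DESeq2), -0.010 (no filter), -0.00097 (marker covariate) and -0.0015 (without Gm42418). In limma voom the values were 0.011 for Oasl2, 0.059 for Irf9, 0.12 for Stat2, 0.13 for Usp18, 0.069 for Cmpk2, 0.020 for Zbp1 and 0.036 for Adar. With the marker covariate they were 0.0050 for Stat2 and 0.057 for Usp18, and with no filter -0.0023 for Ifit2. Leaving out a library gave -0.045 to 0.039 for Ifnar2, -0.10 to 0.15 for Ifit2, -0.059 to 0.034 for Irf9, -0.097 to 0.077 for Stat2, -0.12 to 0.17 for Usp18, -0.024 to 0.19 for Ifi27l2a, -0.062 to 0.060 for Rtp4, -0.072 to 0.040 for Cmpk2 and -0.072 to 0.035 for Adar. No paired analysis was possible because the groups share no replicate number. The median SE over members was 0.12 on the log2 scale, which limits the smaller differences that could be called, and Oas1g was too low to test.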

Other observations

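Interferon gamma induces many of the same genes. Ifng stood at 179, 110.0, 126 and 726 CPM in cKO and 48.0, 110.1 and 69.5 CPM in WT, by far the highest in cKO replicate 12 (log2 fold change 1.91 ± 0.66 (SE), adjusted p = 0.13). That library was the lowest of the cKO libraries in 26 of the 40 tested members and the highest in 0. Among the WT libraries, Ifng was highest in replicate 14, which was the lowest in 21 members. Ifng was picked after its values were seen, and its part in the order of the libraries was not tested.

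The 7 members that were highest in cKO replicate 2 were picked after their values were seen, and they are a smaller share (17.5%) than that of all tested genes (29.9%). B cell markers summed to 164 CPM in that library and to 32.6 to 130.3 CPM in the other cKO libraries. With the marker covariate, the log2 fold change was 0.11 for Mx1, 0.17 for Mx2, 0.21 for Ifih1, 0.14 for Dhx58, 0.60 for Ifi204, 0.35 for Lgals3bp and 0.050 for Herc6. Without it the values were 0.52, 0.37, 0.20, 0.24, 1.003, 0.48 and 0.082 in the same order. The covariate also holds monocyte and dendritic cell markers, and it was highest in cKO replicate 2 (3.29, mean log2 CPM). With the covariate the value was smaller for all of the 7 except Ifih1. The 7 were picked for being highest in that same library, so these values cannot show a part of B cells. None of the 7 was called by edgeR in either fit, and the part of B cells in their order was not tested.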
